A study of Mus musculus with 9 samples.

Results

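Trophoblast is the first lineage that leaves the pluripotent cells of the mouse embryo, and it builds the fetal part of the placenta. The 7 genes described here were chosen by name as genes known for this lineage. No measured value was in the rule, but earlier results of these data were known when they were chosen. They were taken from the 49326 named gene identifiers of the deposited tables, and all 7 were present. They are the homeobox genes Rhox6 and Rhox9 and the transcription factor genes Tead4, Elf5, Gata3, Tfap2c and Gcm1. PolyA+ RNA was sequenced from Hnrnpll-/- mouse cells at day 0 (embryonic stem cells), day 4 and day 8 (embryoid bodies, aggregates in which stem cells differentiate), with 2 libraries a day from lines named G6 and H8 in the labels, and from wild-type cells at the same days, with 1 library a day. Hnrnpll encodes an RNA-binding protein known as a splicing regulator in lymphocytes. Stem cells of both genotypes were grown with serum and leukemia inhibitory factor, and bodies were formed in hanging drops; the labels give no other allele or agent, and no strain, sex or number of clones per line. Wild type was 1 line with 1 library a day, so genotype and line cannot be told apart in any comparison below.

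In the embryo, Tead4 encodes the DNA-binding partner of the Hippo pathway coactivators Yap1 and Wwtr1 and lies upstream of Cdx2 and Gata3 in the outer cells that become trophectoderm. Elf5, Tfap2c and Gata3, with Cdx2 and Eomes, hold the trophoblast stem cell state, Elf5 being known as a gate whose promoter is methylated in embryonic stem cells. Gcm1 drives the syncytiotrophoblast of the labyrinth, and Rhox6 and Rhox9 are X-linked homeobox genes known from placenta and germ cells. Several of these genes are not restricted to trophoblast: Tfap2c and Tead4 are also transcribed in embryonic stem cells, Tfap2c in primordial germ cells, and Gata3 in other embryonic tissues.

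All gene coordinates are GENCODE M21 on mm10. Rhox6 (ENSMUSG00000006200, chromosome X, 37826910 to 37829857, plus strand) and Rhox9 (ENSMUSG00000068048, chromosome X, 37899097 to 37901770, minus strand) are similar copies. Reads that match both bear on their values. Their coding sequences are 684 bases each and match at 620 positions (90.64%), differing at 64. Counted from the first base of the coding sequence, positions 167 to 327 form 1 run of 161 bases that is the same in both genes, and it is shown because a read inside it matches both. The stretch of 120 bases at positions 343 to 462 holds the most differences (24), shown in capitals, and is where a read can be told to one gene or the other.
Rhox6 and Rhox9, positions 167 to 327: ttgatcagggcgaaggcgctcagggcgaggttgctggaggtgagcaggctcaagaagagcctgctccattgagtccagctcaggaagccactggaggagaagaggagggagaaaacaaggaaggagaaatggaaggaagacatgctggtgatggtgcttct
Rhox6, positions 343 to 462: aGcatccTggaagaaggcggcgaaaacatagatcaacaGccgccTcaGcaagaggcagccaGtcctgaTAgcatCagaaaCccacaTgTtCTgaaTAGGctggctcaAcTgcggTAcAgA
Rhox9, positions 343 to 462: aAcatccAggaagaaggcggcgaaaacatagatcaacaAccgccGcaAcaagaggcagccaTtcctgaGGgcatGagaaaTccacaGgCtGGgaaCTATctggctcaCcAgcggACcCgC

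Cut into windows of 50 bases, 16.55% of the Rhox6 transcript and 19.09% of the Rhox9 transcript were found in the other gene. How the authors' counting shared such reads is not given in the sources used here, so the level of each gene alone is uncertain, and the summed value of both genes is given below beside the single ones. The other members were less affected: 4.705% of the Gcm1 transcript was found in transcripts of many other genes, 1.864% of Gata3 in its antisense gene Gm13256, 0.3304% of Tead4 in Tead3, and none of Elf5 or Tfap2c.

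**Figure D1:**
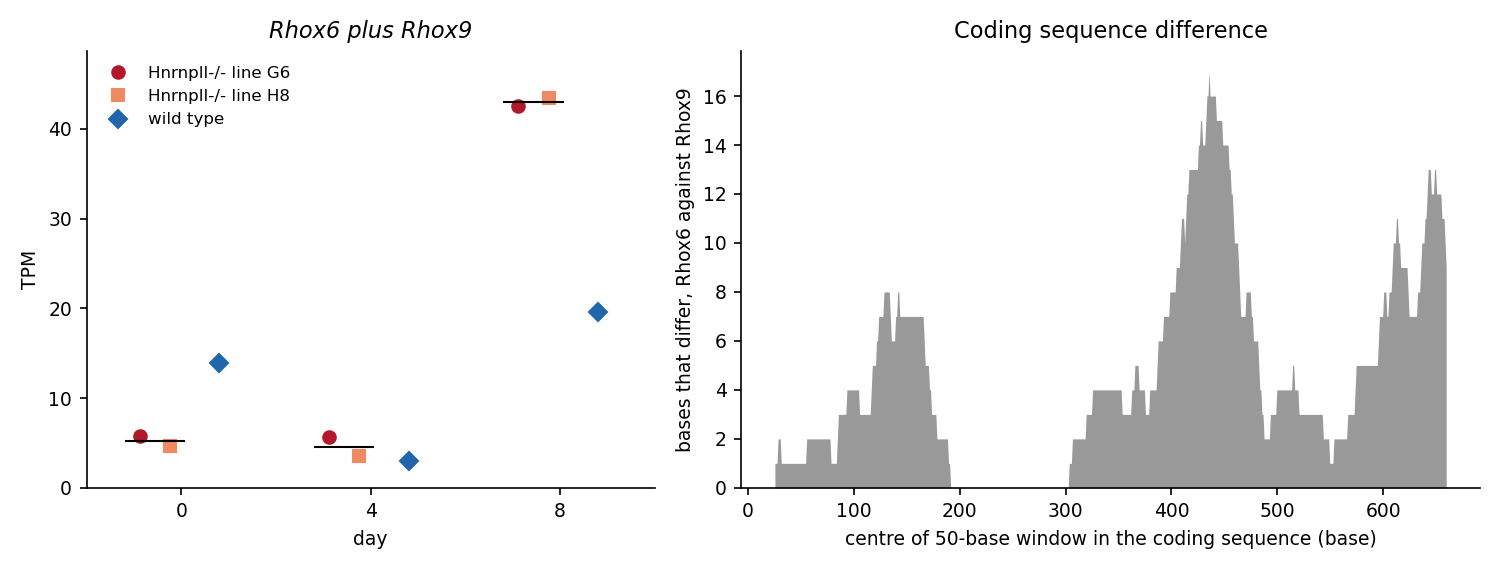
Left, summed TPM (a level scaled for transcript length and library total) of Rhox6 and Rhox9 by day; red and orange points are the Hnrnpll-/- lines G6 and H8, blue diamonds the single wild-type library, and black bars the knockout mean. Right, bases that differ between the Rhox6 and Rhox9 coding sequences in each window of 50 bases; the empty stretch is the identical run of 161 bases. At day 0 both knockout points lie below wild type (5.77 and 4.68 against 13.9 TPM), and at day 8 both lie above it (42.6 and 43.5 against 19.6 TPM).

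Total counts per library ran from 54218051 to 184952442, and the day 0 knockout libraries were the shallowest (54218051 in G6 and 61626609 in H8). In these, 43.5% and 42.6% of low counts (up to 40) were multiples of 4, against 30.5% to 33.2% in the other libraries, where evenly spread counts would give 25%; the part of this step in the day 0 values was not tested. Of the named genes, 24762 passed the filter on low counts, all 7 members among them. Hnrnpll RNA itself remained, at 54.9 and 24.5 TPM in the knockout lines at day 0, 61.2 and 38.6 at day 4, then 56.5 and 43.5 at day 8, against 77.1, 101 and 112 TPM in wild type; where the deletion lies is not given in the sources used here, so this level checks the labels only in part. The Y-linked gene Eif2s3y was at 2.15 and 1.54 TPM in the knockout lines at day 0, at 0.0533 and 0.0165 at day 4 and at 0 in both at day 8, against 129, 82.2 and 134 TPM in wild type. Pluripotency markers fitted the labelled cell type at day 0: 8 genes summed to 4878 and 5232 TPM in the knockout lines, against 2957 TPM in wild type. Fibroblast markers were also present: 10 genes summed to 208.7 and 119.9 TPM in the knockout lines at day 0, against 424.4 TPM in wild type. Of these 10, 1 was lower in knockout at day 0 (Tagln), where 4.33% of all genes were lower. The part of this signal in the day 0 values was not tested. The data are bulk measurements, in which fewer cells that express a gene and less RNA per cell cannot be told apart.

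The levels of the 7 genes spanned a wide range (the plot of TPM by library). On the TPM scale, which divides by transcript length, Tfap2c and Tead4 held the top 2 ranks in every day 0 and day 4 library of both genotypes. Elf5 was the lowest in all 9 libraries and never reached 1 TPM. Gcm1 reached 1 TPM in 3 libraries and Gata3 in 5, while Rhox6, Rhox9, Tead4 and Tfap2c did so in all 9. At day 8 the order differed between libraries: Rhox6 ranked first in line G6, Tfap2c in line H8 and Tead4 in wild type. Summed over the 7 genes, the level was 61.2 and 59.6 TPM at day 0, 30.1 and 33.3 at day 4, then 91.5 and 114.9 at day 8 in the knockout lines, against 56.8, 36.9 and 60.5 TPM in wild type.

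**Figure D2:**
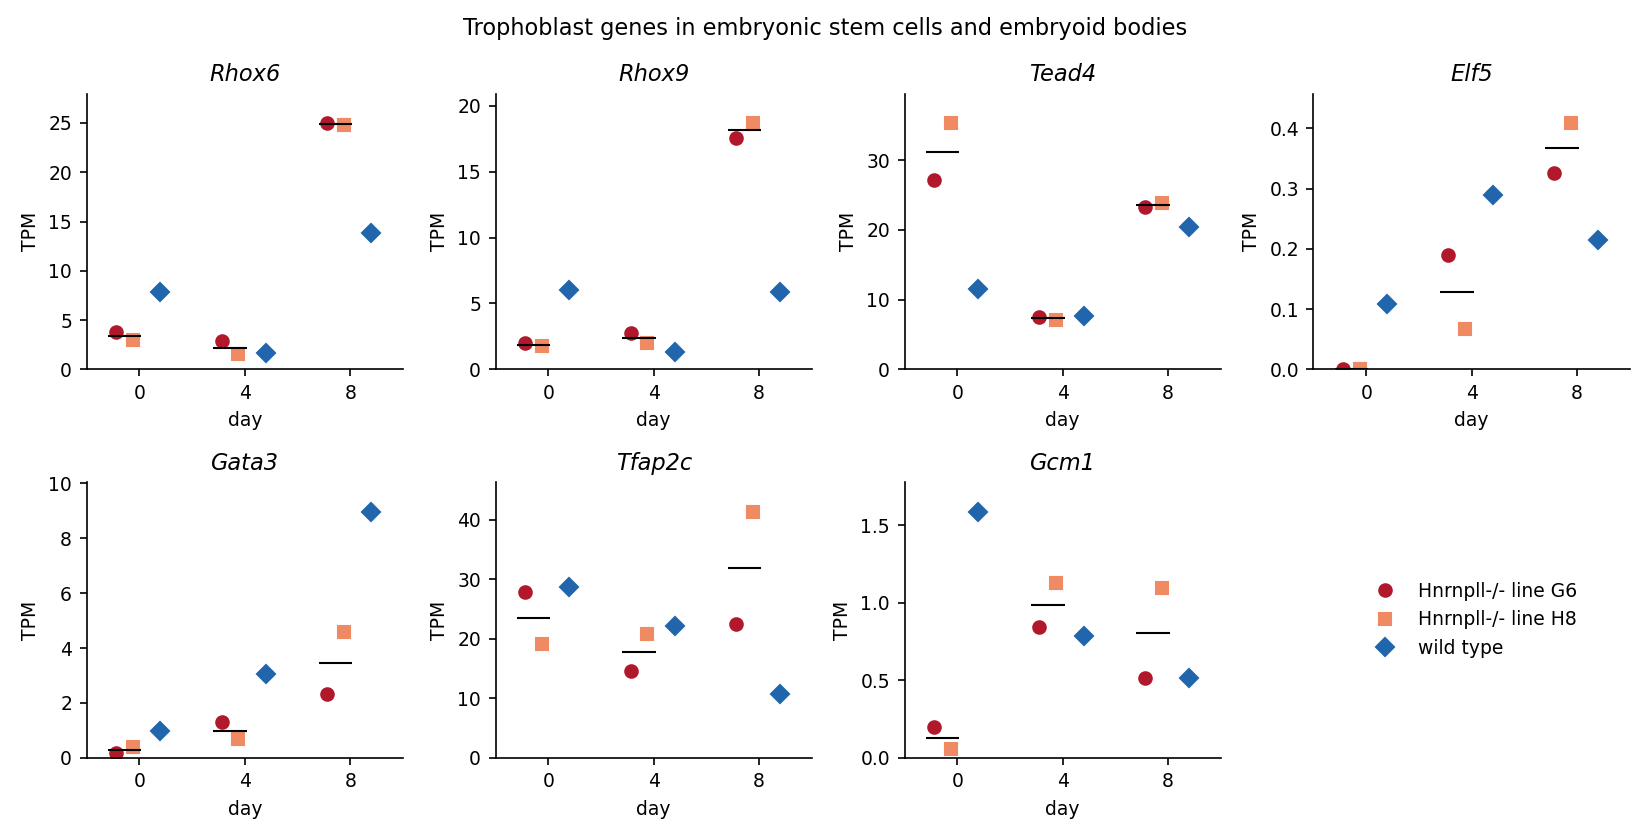
TPM of the 7 genes by day, 1 panel per gene with its own axis from 0; red circles and orange squares are the Hnrnpll-/- lines G6 and H8, blue diamonds the single wild-type library, and black bars the mean of the knockout lines. Rhox6 and Rhox9 stand highest in the day 8 knockout lines, Tead4 in the day 0 knockout lines, and Gata3 in wild type at day 8, where its level was 8.98 TPM.

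Knockout was first set against wild type at each day (the plot of log2 fold changes). At day 0, 1 of the 7 genes passed the test (Tead4, higher in knockout), where 5.44% of all genes tested passed it, 1.11% higher and 4.33% lower. At day 4 none passed, against 0.00808% of all genes (2 genes, 0.00404% higher and 0.00404% lower; 3355 genes had an unadjusted p under 0.05, and DESeq2 called 1320 genes, or 5.33%, and none of the 7). At day 8 none passed, against 9.87% of all genes (5.01% higher and 4.86% lower); here 7351 genes had an unadjusted p under 0.05, and DESeq2 called 2 of the 7 and 22% of all genes. Averaged over the days, none passed, against 0.985% of all genes (0.388% higher and 0.598% lower; 4876 at an unadjusted p under 0.05), and DESeq2 called 1 of the 7 and 13.5% of all genes. By TPM, both knockout lines lay below wild type for 6 of the 7 genes at day 0, where 40.2% of all genes with a TPM did so, for 4 at day 4 (31.6% of genes) and for 1 at day 8 (44.5%). Both lay above it for 1 gene at day 0 (32.9% of genes), for 2 at day 4 (46.1%) and for 6 at day 8 (40.1%). The 6 at day 8 included Gcm1, which in line G6 was only 1.001 times wild type, and Elf5, which stayed below 1 TPM. They also included Rhox6 and Rhox9, which share reads. The 6 below wild type at day 0 held this pair as well. They also held Tfap2c, at 0.973 times wild type in line G6, and Elf5, at 0 counts in both knockout lines against 7 in wild type. The median log2 difference over the 7 genes was -1.45 at day 0, or -1.34 over the 6 genes other than Elf5, which had 0 counts in both knockout lines, against -0.0191 over all genes. It was -0.173 at day 4 (0.0686 over all genes) and 0.973 at day 8 (0.075 over all genes).

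**Figure D3:**
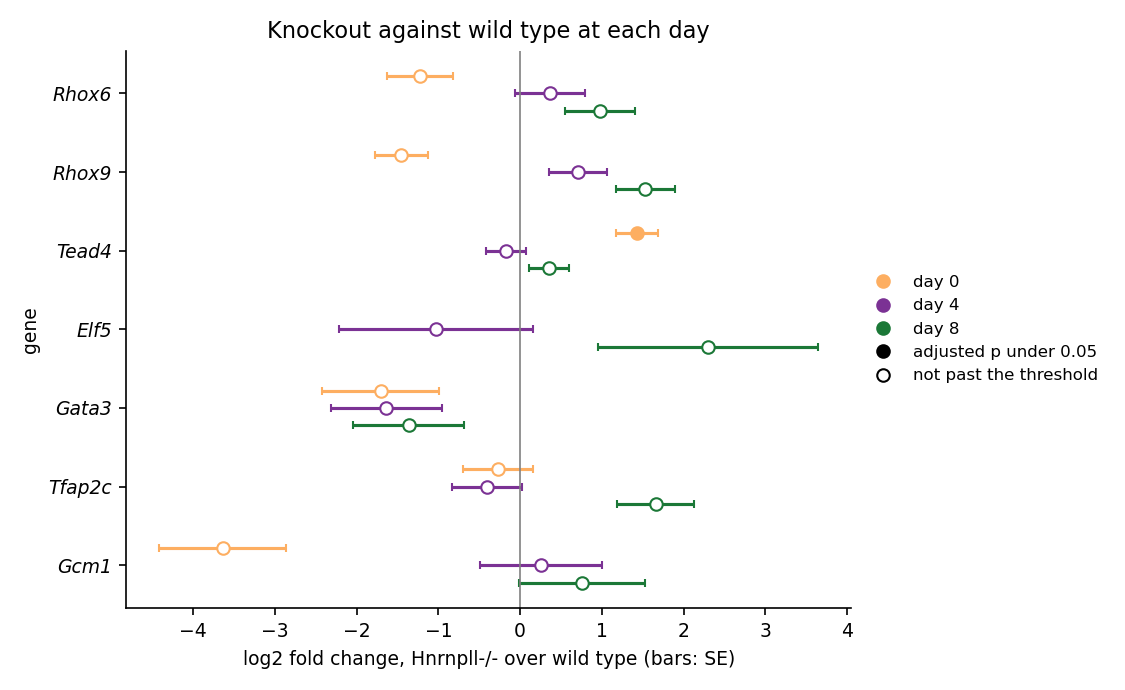
Log2 fold change of Hnrnpll-/- over wild type (edgeR, bars are standard errors) for each gene at day 0 (orange), day 4 (purple) and day 8 (green); filled points passed an adjusted p of 0.05. The point of Elf5 at day 0 is left out, since it had 0 counts in both knockout lines. Tead4 at day 0 (1.43) is the only filled point, and the Rhox6 and Rhox9 points move from below 0 at day 0 to above 0 at day 8.

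Rhox9 was the one member whose difference between knockout and wild type changed with the day in the test. In the knockout lines it had 2.02 and 1.75 TPM at day 0 (G6, then H8), 2.78 and 1.97 at day 4, then 17.6 and 18.7 at day 8, against 6.02, 1.33 and 5.84 TPM in wild type. Both knockout lines were thus below wild type at day 0 and above it at days 4 and 8. The log2 difference was -1.45 ± 0.33 (SE) at day 0 (edgeR adjusted p = 0.0626), 0.71 ± 0.35 at day 4 (edgeR adjusted p = 0.445) and 1.53 ± 0.36 at day 8 (edgeR adjusted p = 0.0511). None of these passed, yet the change of the difference between day 0 and day 8 did: 2.98 ± 0.49 on the log2 scale (edgeR adjusted p = 0.0342), where 4.71% of all genes passed, 3.76% in this direction and 0.949% in the other. The 6 other genes did not pass that test in edgeR, while DESeq2 called 5 of the 7 and 15.7% of all genes. From day 0 to day 4 the difference changed for none of the 7 in edgeR (0.505% of all genes, 0.456% upward and 0.0485% downward; 4270 genes at an unadjusted p under 0.05) and for 3 in DESeq2 (7.66% of all genes). From day 4 to day 8 it changed for none (0% of all genes; 4040 at an unadjusted p under 0.05) and for 1 in DESeq2 (6.36%). The Rhox9 difference at day 0 passed in DESeq2 (adjusted p = 0.00278). The day 8 value lay close to the threshold: it passed with total count scaling (adjusted p = 0.0489), DESeq2 (0.000548), limma-voom (0.0196) and both TPM scales (0.0342 and 0.0443). The change between days was lost without any 1 of the day 4 or day 8 knockout libraries (edgeR adjusted p = 0.103 and 0.1025 without G6 or H8 of day 4, and 0.116 and 0.0905 without G6 or H8 of day 8).

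Rhox6 followed a like course. Its level was 3.74 and 2.93 TPM in the knockout lines at day 0, 2.84 and 1.57 at day 4, then 24.99 and 24.8 at day 8, against 7.86, 1.62 and 13.8 TPM in wild type. At day 4 the wild-type value fell between the lines, and at days 0 and 8 it lay outside them. The log2 differences were -1.23 ± 0.40, 0.36 ± 0.43 and 0.97 ± 0.43 at days 0, 4 and 8 (edgeR adjusted p = 0.135, 0.767 and 0.192). The change from day 0 to day 8 was 2.20 ± 0.59 and did not pass (edgeR adjusted p = 0.0906).

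Counted as 1 feature, which does not depend on how shared reads were divided if each was counted once, Rhox6 plus Rhox9 had 177 and 172 counts in the knockout lines at day 0, 400 and 302 at day 4, then 3556 and 4326 at day 8, against 844, 215 and 1311 counts in wild type. The summed feature differed between genotypes by -1.32 ± 0.31 on the log2 scale at day 0 and 1.17 ± 0.33 at day 8 (edgeR adjusted p = 0.0677 and 0.0788). The change of 2.49 ± 0.46 between these days passed (edgeR adjusted p = 0.0425, or 0.0422 with the line as a replicate block), and without 1 library at a time its adjusted p ran from 0.0405 to 0.133. The Rhox9 level was between 0.424 and 1.26 times that of Rhox6, lowest in wild type at day 8 and highest in line H8 at day 4.

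Within the knockout, Rhox6 rose between day 4 and day 8 by 3.51 ± 0.37 and Rhox9 by 2.67 ± 0.29 on the log2 scale (edgeR adjusted p = 0.0366 and 0.0381). In this step 0.307% of all genes passed, 0.162% upward and 0.145% downward, and these were the only members to pass. Both calls were lost without any 1 day 4 or day 8 knockout library (edgeR adjusted p between 0.131 and 0.2966 for Rhox6 and between 0.142 and 0.369 for Rhox9), while that of the summed feature ran from 0.0242 to 0.277. From day 0 to day 8 Rhox6 rose by 2.90 ± 0.36 and Rhox9 by 2.86 ± 0.30 (edgeR adjusted p = 0.0103 and 0.00607), where 7.9% of all genes passed and 5.93% rose; the Rhox6 call was lost without the day 8 library of G6 (0.0526) or of H8 (0.0559). In wild type, which has no replicate, Rhox6 was 8.52 times and Rhox9 4.39 times higher at day 8 than at day 4.

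Both genes are X-linked, and X-linked genes as a class lay lower in the knockout at day 0: the median log2 difference of 657 X-linked protein-coding genes was -0.439, against 0.00203 for 16554 autosomal ones. At day 8 these medians were -0.181 and 0.00158. The part of this shift in the Rhox values was not tested. Xist, the RNA that silences 1 X chromosome in female cells, was at 2.90 and 3.63 TPM in the knockout lines at day 0, 2.55 and 1.42 at day 4, then 1.43 and 1.68 at day 8, against 8.42, 0.742 and 0.285 TPM in wild type.

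Rhox6 and Rhox9 lie in a cluster of reproductive homeobox genes on the X chromosome. Of the 40 other Rhox genes in the tables, 15 passed the filter on low counts and 14 were listed at 0 in all libraries. Rhox5, the founding member, was the most abundant, at 37.0 and 79.0 TPM in the knockout lines at day 0, 29.4 and 29.7 at day 4, then 38.7 and 55.8 at day 8, against 16.5, 5.43 and 41.2 TPM in wild type. It stood above wild type in both knockout lines at days 0 and 4, where Rhox6 and Rhox9 stood below it at day 0. Against wild type no other Rhox gene passed at day 0 or day 4, and 1 passed at day 8, where 5.01% of all genes were higher. It was the pseudogene Rhox7-ps2, at 1.999 and 2.36 TPM in the knockout lines against 0 in wild type. Within the knockout, Rhox4g passed upward from day 0 to day 8, where 5.93% of all genes rose. Rhox1 fell from day 0 to day 4 (log2 change -1.96 ± 0.48, edgeR adjusted p = 0.0458), where 5.17% of all genes fell. These calls were lost in 6 and 5 of 9 fits without 1 library.

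Tead4 (ENSMUSG00000030353, chromosome 6, 128224288 to 128300823, minus strand) was the one member that passed against wild type within a day. It had 27.1 and 35.4 TPM in the knockout lines at day 0, 7.503 and 7.12 at day 4, then 23.3 and 23.9 at day 8, against 11.6, 7.64 and 20.4 TPM in wild type. The lines lay well above wild type at day 0 and within 1.171 times of it at days 4 and 8. Its log2 difference at day 0 was 1.43 ± 0.26 (edgeR adjusted p = 0.0359), and the values at days 4 and 8 were -0.17 ± 0.24 and 0.35 ± 0.24 (edgeR adjusted p = 0.811 and 0.382). The day 0 call rests on the spread of all knockout libraries: with the line as a replicate block the value was 1.36 (edgeR adjusted p = 0.0523). It was also lost without line G6 or H8 at day 4 (edgeR adjusted p = 0.103 and 0.102) and without G6 or H8 at day 8 (0.087 and 0.0844). The change of the difference between day 0 and day 4 was -1.60 ± 0.34 and did not pass (edgeR adjusted p = 0.111).

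Along the knockout course Tead4 fell by 2.09 ± 0.20 from day 0 to day 4 on the log2 scale (edgeR adjusted p = 0.00357), and this call held under every alternative run. In that step 14.8% of all genes passed, 5.17% downward. From day 4 to day 8 the change was 1.66 ± 0.20 (edgeR adjusted p = 0.050), just short of the threshold. It passed in 12 of 18 alternatives, among them the replicate block (0.0491), limma-voom (0.0248) and DESeq2 (4.62e-10). Without any 1 day 4 or day 8 knockout library its adjusted p was 0.1635 to 0.3725. In wild type Tead4 was 1.51 times higher at day 0 than at day 4 and 2.67 times higher at day 8 than at day 4, so the dip at day 4 was seen in all 3 lines. Ordered by level, the day 0 knockout libraries came first (27.1 and 35.4 TPM), then the day 8 knockout libraries (23.3 and 23.9 TPM) and day 8 wild type (20.4 TPM), then day 0 wild type (11.6 TPM), and the 3 day 4 libraries last. Neighbours at day 8 and at day 4 did not pass a test against each other.

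The partners of Tead4 in the Hippo pathway were read from 17 genes. Among all genes, 4.33% were lower in knockout at day 0. At day 0 only 1 of the 17 passed against wild type: Lats2, a kinase that restrains the coactivators, was at 4.80 and 5.83 TPM in the knockout lines and 10.3 TPM in wild type (log2 difference -1.38 ± 0.24, edgeR adjusted p = 0.0317, and up to 0.0859 without any 1 of the 6 knockout libraries). At day 8, 7 of the 17 were lower in knockout and none higher, with a median log2 difference of -1.08 against 0.075 over all genes, of which 4.86% were lower. All 7 calls were lost without G6 or H8 at day 4 and without G6 at day 8, and 6 of them without H8 at day 8, Vgll4 being the exception. Their highest adjusted p ran from 0.0847 (Lats2) to 0.149 (Lats1). They comprised Lats2 (-2.10 ± 0.23, edgeR adjusted p = 0.0176), Lats1, the kinase scaffold genes Mob1b and Sav1, Amotl1, the coactivator antagonist Vgll4 (-1.83 ± 0.24, edgeR adjusted p = 0.02) and Ankrd1, a known target of Yap1 (-3.61 ± 0.69, edgeR adjusted p = 0.0332). Ccn2 and Ccn1, target genes on the same list, did not pass at day 8 (-0.13 ± 0.33 and -1.08 ± 0.53). Yap1 was at 85.5 and 83.8 TPM in the knockout lines and 150.6 TPM in day 8 wild type. Wwtr1 was at 29.8 and 32.2 against 54.4 TPM there, and neither Yap1 nor Wwtr1 passed. Among the relatives of the members, Tead1, Tead2 and Tead3 did not pass against wild type at any day.

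Gata3 (ENSMUSG00000015619, chromosome 2, 9857078 to 9890034, minus strand) was below wild type in both knockout lines at each day, without passing the test. It had 0.170 and 0.407 TPM in the knockout lines at day 0, 1.31 and 0.672 at day 4, then 2.32 and 4.598 at day 8, against 0.969, 3.05 and 8.98 TPM in wild type. The log2 differences of -1.71 ± 0.71, -1.63 ± 0.68 and -1.36 ± 0.68 were of like size (edgeR adjusted p = 0.211, 0.372 and 0.239). Averaged over the days the difference was -1.57 ± 0.38 (edgeR adjusted p = 0.083), with an adjusted p of 0.00144 in DESeq2 and 0.0435 in limma-voom. The knockout lines differed from each other by 1.95 to 2.39 times within a day, G6 being lower at days 0 and 8 and higher at day 4. Within the knockout Gata3 rose from day 0 to day 8 by 3.44 ± 0.65 on the log2 scale (edgeR adjusted p = 0.0321). This call was lost in limma-voom (0.056) and without the day 0 library of G6 (0.0724), either day 4 library (0.0677 without G6 and 0.0664 without H8) or either day 8 library (0.0643 without G6 and 0.126 without H8). In wild type it was 9.26 times higher at day 8 than at day 0. Gata3 shares exon positions with the antisense gene Gm13256, which did not exceed 0.0875 TPM in any library, and with 9230102O04Rik on its own strand, which was at 0.237 and 1.02 TPM in the day 8 knockout lines and 1.98 TPM in wild type. The use of strand is not given in the sources used here, so the Gata3 counts are uncertain to that extent.

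Elf5 (ENSMUSG00000027186, chromosome 2, 103411688 to 103450989, plus strand) was at the edge of detection throughout. It had 0 counts in both knockout lines at day 0, 21 and 5 at day 4, then 45 and 91 at day 8, against 7, 24 and 10 counts in wild type. In TPM this was 0 and 0, then 0.190 and 0.0677, then 0.326 and 0.409 in the knockout lines, against 0.109, 0.289 and 0.214 TPM in wild type. A count of 0 in the shallow day 0 knockout libraries allows up to 0.0553 CPM (counts scaled to the library total) in G6 and 0.0487 CPM in H8, for counting error only. These limits take counts as single reads, which the excess of multiples of 4 puts in doubt. The 7 counts of wild type carry a counting error of their own, so no fold is given at day 0. At days 4 and 8 the log2 differences were -1.03 ± 1.18 and 2.30 ± 1.35 (edgeR adjusted p = 0.765 and 0.322). No comparison of Elf5 passed in edgeR; from day 0 to day 8 within the knockout it passed in DESeq2 (adjusted p = 0.0077).

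Tfap2c (ENSMUSG00000028640, chromosome 2, 172549593 to 172558622, plus strand) was among the most abundant members. Its level was 27.9 and 19.1 TPM in the knockout lines at day 0, 14.6 and 20.8 at day 4, then 22.4 and 41.4 at day 8, against 28.7, 22.2 and 10.7 TPM in wild type. In wild type the level was lower at each later day, and at day 8 both knockout lines stood above it, by 2.09 times in G6 and 3.86 times in H8. The log2 difference at day 8 was 1.66 ± 0.47 (edgeR adjusted p = 0.0764; 0.00391 in DESeq2), and those at days 0 and 4 were -0.27 ± 0.43 and -0.41 ± 0.43 (edgeR adjusted p = 0.747 and 0.733). The knockout lines themselves differed by 1.85 times at day 8. Markers of other cell types that express Tfap2c moved in the same libraries: of 8 pluripotency genes 7 were higher in knockout at day 8, with a summed level of 3073 and 3053 TPM in the knockout lines and 492.4 TPM in wild type. Of 9 primordial germ cell genes 2 were higher (Dazl and Prdm14), with a sum of 239.9 and 177.4 TPM in the knockout lines and 137.8 TPM in wild type. Over all genes, 5.01% were higher at day 8. The part of these markers in the Tfap2c level was not tested.

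Gcm1 (ENSMUSG00000023333, chromosome 9, 78051924 to 78065624, plus strand) was low in all libraries and lowest in the day 0 knockout lines. It had 12 and 4 counts in the knockout lines at day 0, 122 and 181 at day 4, then 93 and 235 at day 8, against 196, 112 and 70 counts in wild type. In TPM this was 0.199 and 0.0580, then 0.846 and 1.13, then 0.517 and 1.10 in the knockout lines, against 1.59, 0.786 and 0.517 TPM in wild type. The day 0 lines lay below wild type; at day 8 line G6 was at 1.001 times wild type and H8 at 2.12 times. The log2 difference at day 0 was -3.64 ± 0.78 (edgeR adjusted p = 0.0535), and it passed in DESeq2 (0.00233), on the log2(TPM + 1) scale (0.0416), without day 8 wild type (0.0495) and when G6 was left out at day 0 (0.0498). At days 4 and 8 it was 0.25 ± 0.75 and 0.76 ± 0.77 (edgeR adjusted p = 0.926 and 0.554). Within the knockout Gcm1 rose from day 0 to day 4 by 2.96 ± 0.70 on the log2 scale (edgeR adjusted p = 0.0413), where 9.59% of all genes rose. This call was lost with the replicate block (0.059), in limma-voom (0.0778), without the day 0 library of H8 (0.0907), without either day 4 library (0.13 for G6 and 0.168 for H8) and without either day 8 library (0.0614 for G6 and 0.0631 for H8).

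The genes around the members in the trophoblast programme were read from lists (the plot of trophoblast genes by library). Of 15 further trophoblast transcription factors, 1 was lower in knockout at day 0 (Id2), where 4.33% of all genes were lower. At day 8, 2 were lower (Id2 and Cdx2), where 4.86% of all genes were lower, and none of the 15 passed as higher at any day. The median log2 difference of the list was -0.529 at day 0, -0.165 at day 4 and -0.315 at day 8. Ascl2 went the other way, at 1.05 ± 0.35, 3.16 ± 0.39 and 1.13 ± 0.35 at these days, without passing. For the change of the difference from day 0 to day 4, 1 of the 15 passed upward, where 0.456% of all genes did. Cdx2, the caudal homeobox factor of trophectoderm that also acts in posterior mesoderm, had 0.122 and 0.159 TPM in the knockout lines at day 0, 0.562 and 1.43 at day 4, then 1.77 and 4.69 at day 8, against 1.31, 17.4 and 37.3 TPM in wild type. Its log2 difference was -3.41 ± 0.71 at day 8 and -3.64 ± 0.42 over all days (edgeR adjusted p = 0.039 and 0.0214). The day 8 call was lost without any 1 day 4 or day 8 knockout library (up to 0.133). That over all days was lost in 5 of 9 fits without 1 library (G6 or H8 at day 4, H8 at day 0 or day 8, or day 8 wild type; up to 0.0683). Hand1, needed for trophoblast giant cells and also expressed in extraembryonic and cardiac mesoderm, had 0.253 and 0.441 TPM in the knockout lines at day 0, 1.48 and 1.98 at day 4, then 14.7 and 57.8 at day 8, against 1.47, 10.4 and 239.2 TPM in wild type. It was lower over all days (-2.47 ± 0.39, edgeR adjusted p = 0.0374), a call kept in only 2 of 9 such fits (without day 0 wild type or G6 at day 8; up to 0.124 in the others). Id2, an inhibitor of helix-loop-helix factors, had 39.5 and 41.3 TPM in the knockout lines and 151.7 TPM in wild type at day 8 (-1.79 ± 0.22, edgeR adjusted p = 0.0191, and up to 0.0936 without 1 day 4 or day 8 knockout library). Within the knockout, 3 of the 15 (Id2, Cdx2 and Hand1) rose from day 0 to day 8, as Gata3 did, where 5.93% of all genes rose. In the same wild-type libraries mesoderm genes stood high: 7 primitive streak and mesoderm genes summed to 52.6 and 119.4 TPM in the knockout lines and 1483 TPM in wild type at day 4; at day 8, to 20.4 and 34.4 in the knockout lines against 649.8 TPM in wild type. Their part in the levels of Gata3, Cdx2 and Hand1 was not tested.

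**Figure D4:**
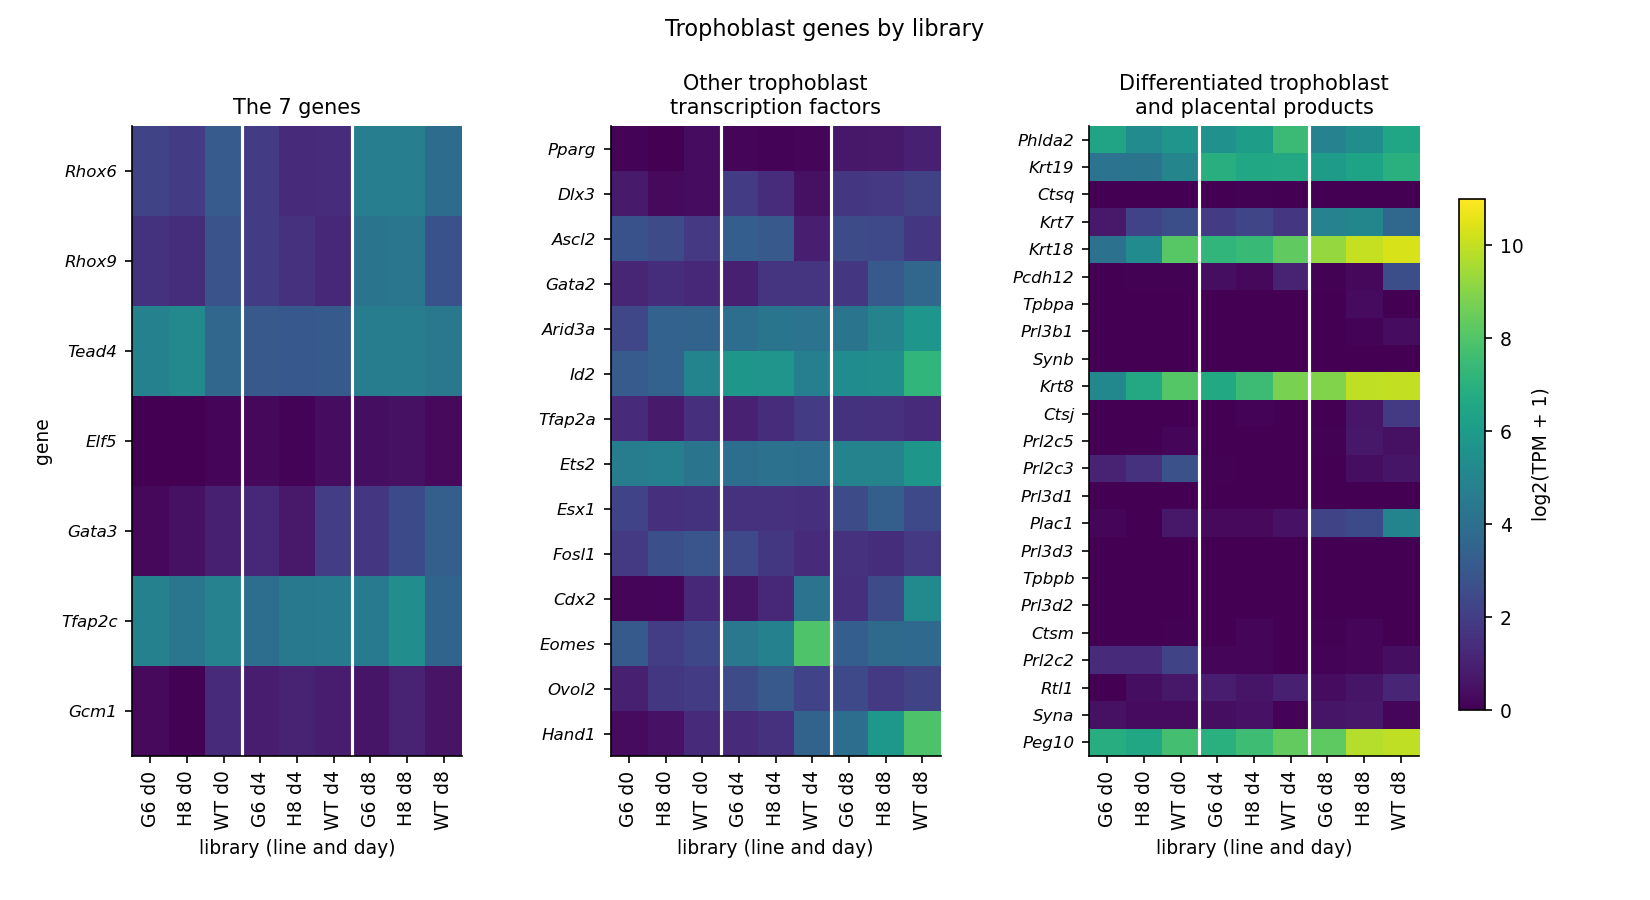
Log2(TPM + 1) of the 7 genes (left), of 14 further trophoblast transcription factors with a TPM (middle) and of 23 differentiated trophoblast and placental products (right) in each library; columns run by day, with the knockout lines G6 and H8 left of wild type. Most placental products are dark in every column, and Krt8, Krt18 and Peg10 are bright, with Krt18 at 610.1 and 1059 TPM in the day 8 knockout lines and 1296 TPM in wild type.

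Products of differentiated trophoblast ranged from genes at 0 to genes of high level. Of 23 such genes, 14 passed the filter on low counts, and the list summed to between 269.8 and 3561 TPM, most of it from keratins, Peg10 and Phlda2. The giant cell lactogen genes Prl3d1, Prl3d2 and Prl3d3 and Tpbpb were listed at 0 in all 9 libraries. The spongiotrophoblast gene Tpbpa was above 0 only in line H8 at day 8 (0.234 TPM), and the syncytin gene Synb only in wild type at day 8 (0.0201 TPM). Prl3b1, made by secondary giant cells, reached 0.088 TPM in H8 and 0.279 TPM in wild type, both at day 8. Other genes known from giant cells or the syncytium were low but present. The proliferin gene Prl2c2 had 1.45 and 1.56 TPM in the day 0 knockout lines and 3.74 TPM in wild type, and at most 0.335 TPM in any later library. At day 0 Prl2c3 had 1.09 and 1.93 TPM in the knockout lines and 5.70 TPM in wild type. The cathepsin gene Ctsj reached 0.572 TPM in H8 and 2.62 TPM in wild type at day 8. The syncytin gene Syna had 0.528 and 0.644 TPM in the day 8 knockout lines and 0.128 TPM in wild type (2.31 ± 0.74, edgeR adjusted p = 0.0998). The most abundant products, and Plac1, are also made by other epithelia or tissues: Krt8, Krt18, Krt7 and Krt19 (simple epithelial keratins) and Peg10. Of the 14 products tested, 1 was lower in knockout at day 0 (Krt18, -3.35 ± 0.55, edgeR adjusted p = 0.0277) and 1 at day 8 (Pcdh12, a protocadherin of glycogen trophoblast and of endothelium, -5.28 ± 0.92, edgeR adjusted p = 0.0281). Both calls were lost without any 1 day 4 or day 8 knockout library (up to 0.0754 and 0.125). Among all genes, 4.33% were lower at day 0 and 4.86% at day 8. The median log2 difference of the list at day 8 was -0.944. Plac1, a placental surface protein, was at 3.76 and 4.63 TPM in the day 8 knockout lines and 30.2 TPM in wild type, without passing. Within the knockout 6 products rose from day 0 to day 8, where 5.93% of all genes rose. Among them were Krt18 (4.91 ± 0.54), Plac1 (6.18 ± 0.84) and Peg10 (2.53 ± 0.51), with edgeR adjusted p = 0.00717, 0.0134 and 0.0382. Prl2c2 fell (-3.52 ± 0.57, edgeR adjusted p = 0.0213), where 1.97% of all genes fell. Without 1 library at a time the Krt18 call was kept, that of Plac1 was lost without H8 at day 8 (0.0582), and those of Peg10 and Prl2c2 were lost in 5 and 4 of 9 fits. Markers of other tissues were counted at day 8, where 9.87% of all genes passed, 5.01% higher and 4.86% lower. Of 9 surface ectoderm genes 2 were higher in knockout (Grhl3 and Krt5) with a list median of -0.177. Of 11 extraembryonic endoderm genes 1 was lower (Ttr), with sums of 113.2 and 100.6 TPM in the knockout lines and 650.7 TPM in wild type. Of 10 fibroblast genes 4 were lower, with sums of 79.8 and 144.4 TPM in the knockout lines against 1191 TPM in wild type. At day 0 the fibroblast sums were 208.7 and 119.9 TPM in the knockout lines and 424.4 TPM in wild type. The part of these tissue markers in the product levels, those of Prl2c2 and Prl2c3 at day 0 included, was not tested.

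Genes of the signals that keep trophoblast stem cells went in both directions. Of 8 such genes, 2 were higher and 2 lower in knockout at day 0, and the same was counted at day 8. Over all genes, 1.11% were higher and 4.33% lower at day 0, and 5.01% were higher and 4.86% lower at day 8. Fgf4, the ligand made by pluripotent cells, was at 151.8 and 166.5 TPM in the knockout lines and 46.7 TPM in wild type at day 0; at day 8, at 130.9 and 124.5 in the knockout lines against 21.4 TPM in wild type (log2 differences 1.77 ± 0.27 and 2.68 ± 0.28, edgeR adjusted p = 0.0235 and 0.0175). Its receptor in trophoblast, Fgfr2, was at 3.08 and 2.01 TPM in the knockout lines and 14.3 TPM in wild type at day 0; at day 8, at 10.2 and 11 in the knockout lines against 34.3 TPM in wild type (-3.08 ± 0.24 and -1.64 ± 0.24, edgeR adjusted p = 0.00485 and 0.023). Without 1 library, the Fgf4 call at day 0 was lost without either day 8 knockout library (up to 0.0577), and the Fgfr2 call at day 0 was kept. The day 8 calls were lost without either day 4 knockout library or G6 at day 8 (up to 0.0762 for Fgf4 and 0.102 for Fgfr2), that of Fgfr2 also without H8 at day 8. Pcsk6, a convertase that matures Nodal, was higher and Inhba, an activin subunit, lower at both days.

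Factors known to hold trophoblast genes silent in embryonic stem cells were read from 12 genes. The DNA methyltransferase Dnmt3b was the only one that passed at day 0, at 60.6 and 51.1 TPM in the knockout lines and 152.1 TPM in wild type (-1.501 ± 0.27, edgeR adjusted p = 0.0365, and up to 0.097 without 1 day 0 or day 4 knockout library). At day 8, 2 were higher: Pou5f1, the pluripotency factor that represses Cdx2, at 1088 and 1013 TPM in the knockout lines and 178.3 TPM in wild type (2.68 ± 0.19, edgeR adjusted p = 0.0142), and the polycomb subunit Eed (1.04 ± 0.21, edgeR adjusted p = 0.037). Of all genes, 4.33% were lower at day 0, while 5.01% were higher and 4.86% lower at day 8. Among 17 tested relatives of the members, none passed at days 0 and 4. At day 8 Elf3, an epithelial relative of Elf5, was higher, at 50.3 and 49.95 TPM in the knockout lines and 14.9 TPM in wild type (1.86 ± 0.24, edgeR adjusted p = 0.0202), and Elf2 was lower (-0.88 ± 0.19, edgeR adjusted p = 0.0439). As with every day 8 call against wild type, these and those of Pou5f1 and Eed were lost without G6 or H8 at day 4, since no gene passed then.

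The genes most like each member across the 9 libraries were found by Pearson correlation of log2(TPM + 1) among the tested protein-coding genes with a mean of at least 1 TPM; the libraries share line and day, and the values are a description. Rhox6 and Rhox9 were each in the other's first 3 (r = 0.962), and they share reads, but by Spearman rank correlation (0.85) the partner stood at rank 62 for Rhox6 and 41 for Rhox9. By Spearman, Errfi1, Brwd1, Def8 and Actn2 of the genes named next ranked 1 for their member and Irf2 ranked 2, while the others ranked between 12 and 258, so most of this order depends on the measure. Rhox6 was closest to Gsn (0.971), the actin-severing gelsolin, and also to Car8 (0.956). Rhox9 was closest to Mal (0.979) and also to Errfi1 (0.939). Tead4 was closest to Cmtm7 (0.991), Brwd1 (0.983) and Sfrp1 (0.982). Gata3 was closest to Hand1 (0.976), Lhfpl2 (0.973) and Irf2 (0.969), Hand1 being the only one of these that was on a trophoblast list. Gcm1 was closest to Actn2 (0.951), Sema3e (0.942) and Glrx2 (0.941). No gene came as near to Tfap2c, whose first were Def8 (0.892), Ndufv1 (0.882) and Cox5a (0.872). Between the members, Elf5 and Gata3 had r = 0.782 and Tead4 and Gcm1 had r = -0.68.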

How the data were processed

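Per the submitters' processing notes, HISAT2 2.0.5 and StringTie 1.3.3b were used with the mm10 build; roles, settings, annotation and strandedness are not given in the sources used here. For each library the authors deposited gene-level counts (whole numbers) and gene-level TPM, per the file headers. The 259 entries without a gene name in each count table held at most 0.0398% of counts and were left out; 15 identifiers (Junb's among them) have counts and no TPM. All 49326 identifiers matched GENCODE M21.

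A gene was kept with 0.0791 CPM or more, equal to 10 counts in the library of median depth, in 2 or more libraries (24762 genes). After TMM scaling, the two-sided quasi-likelihood test of edgeR 4.0.16 (R 4.3.3) was applied, with Benjamini-Hochberg adjustment over all genes tested and a threshold of 0.05. A fit of 6 group means gave the comparisons within and between days (3 residual degrees of freedom, prior 3.12), and an additive model of day and genotype gave the average over days (5, prior 3.48); 10 comparisons were tested. The spread comes from the knockout lines, and each day's single wild-type library is taken to vary as they do. Nothing in the labels says that libraries came from repeated cultures, so p-values measure the spread between lines. ± is the standard error of a log2 difference, taken as its size over the root of F. Wild-type courses are values without a test.

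The 7 members and all lists were chosen with earlier results of these data known. Named genes were the members, up to 4 genes past the threshold from each list and comparison by size of change, the 3 genes most correlated with each member that reaches 1 TPM, and line identity genes. Yap1, Wwtr1, Tead1 to Tead3, Rhox5, Plac1 at day 8, the products without a call, Krt8, Krt19 and Peg10, and Lats1, Amotl1 and Sav1 at day 8 were named after their values were seen. So were Ascl2, Ccn1 and Ccn2. Alternatives were RLE size factors, total count scaling, no filter, DESeq2 1.42.0, limma-voom 3.58.1, log2(TPM + 1), log2(TPM + 0.1), a replicate block, each library left out and each line alone; those without the day 0 knockout libraries and with Rhox6 and Rhox9 counts summed were added after seeing the data. The replicate number names the knockout line, and so pairs the libraries between days. The differences between the lines (H8 minus G6) were correlated between days over 15732 genes (r = 0.196 for days 0 and 4, 0.135 for days 0 and 8, 0.367 for days 4 and 8). The main fit held no line term and did not use this pairing, which only the replicate block did.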

Additional observations from a re-analysis of the deposited data

Results flagged for a closer look

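Rhox9 met the rule for a knockout effect that differs between days by a test of the difference itself. Its log2 difference of knockout from wild type changed by 2.98 ± 0.49 (SE) between day 0 and day 8 (edgeR adjusted p = 0.0342), with both knockout lines below wild type at day 0 (2.02 and 1.75 against 6.02 TPM) and both above it at day 8 (17.6 and 18.7 against 5.84 TPM). The call was lost without any 1 day 4 or day 8 knockout library (edgeR adjusted p = 0.0905 to 0.116). The 6 other genes did not pass this test in edgeR, while DESeq2 called 5 of the 7 and 15.7% of all genes. Summed with its similar copy Rhox6, the change was 2.49 ± 0.46 (edgeR adjusted p = 0.0425, a call that did not hold in every fit without 1 library). No group held 4 or more libraries, so no library could be tested as standing apart for a single gene.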

How the results depend on the processing

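Of 1196 alternative values for the 70 results on the 7 genes, 1081 kept direction and side of the threshold, 32 lost a call, 45 gained one and 38 changed sign. No change of sign touched a call or passed the test. DESeq2 raised the number of the 7 genes called to 3 at day 0, 2 at day 8, 1 over all days, 3 from day 0 to day 4, 3 from day 4 to day 8 and 5 from day 0 to day 8 in the knockout, and 3, 1 and 5 for the changes of the difference from day 0 to 4, 4 to 8 and 0 to 8. Over all genes, DESeq2 called 15.1% at day 0, 22% at day 8 and 13.5% over all days. In the knockout it called 24.5% from day 0 to day 4, 6.32% from day 4 to day 8 and 18.3% from day 0 to day 8. For the changes of the difference it called 7.66%, 6.36% and 15.7% of all genes. On the log2(TPM + 1) scale 2 of the 7 were called at day 0. At day 8, total count scaling, limma-voom, both TPM scales and leaving out the day 0 knockout libraries (added after seeing the data) each gave 1, and over all days limma-voom gave 1. From day 0 to day 4 in the knockout limma-voom gave 1, where it called 3208 genes in all. Across all alternatives other than single libraries left out, the genes called ran from 946 (limma-voom) to 3737 (DESeq2) at day 0. At day 8 they ran from 2106 to 5455, and over all days from 0 to 3346. The cause of these differences between settings was not tested. Leaving out 1 library at a time gave 0 to 2 at day 0, 0 to 1 at day 8, 1 to 2 from day 0 to day 4, 0 to 3 from day 4 to day 8, 1 to 3 from day 0 to day 8 and 0 to 3 for the change of the difference between day 0 and day 8.

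With the line as a replicate block, 0 of the 7 were called at day 0 and 1 from day 0 to day 4, Tead4 passed from day 4 to day 8 (edgeR adjusted p = 0.0491), and the block changed no other call of the 7 genes. Over all genes the block gave 0 calls at day 4 (2 without it), 60 over all days (244), 149 from day 4 to day 8 (76) and 12 for the change from day 0 to day 4 (125).

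Changes of sign follow. Rhox6 over all days (-0.05) was 0.00791 with total count scaling, 0.355 in limma-voom, 0.0114 on log2(TPM + 1), 0.119 with the replicate block, 0.221 for line G6 alone, 0.649 without the day 0 knockout libraries and 0.0208 with the Rhox counts summed. Over all days Elf5 was 0.425 in limma-voom and 0.327 without those libraries, and Gcm1 0.484 without them. Rhox9 from day 0 to day 4 was -0.233 with the counts summed. For the change from day 0 to day 4, Elf5 was -0.045 on log2(TPM + 1), and Gata3 -0.423 and -0.0618 on log2(TPM + 1) and log2(TPM + 0.1). Gata3 was -0.17 and -0.594 on log2(TPM + 1) for the changes from day 4 to 8 and day 0 to 8.

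Leaving out 1 library at a time, the log2 values ran over all days from -2.22 to 0.313 for Elf5, -2.01 to 0.478 for Gcm1, -0.519 to 0.644 for Rhox6, -0.514 to 1.09 for Rhox9 and -0.352 to 0.571 for Tfap2c. At day 4 they ran from -0.0051 to 0.469 for Gcm1 and -0.0879 to 0.707 for Rhox6. In the knockout they ran from -0.909 to 0.146 for Gcm1 from day 4 to day 8, and -0.086 to 0.795 for Tfap2c from day 0 to day 8. For changes of the difference, Gata3 ran from -0.448 to 0.894 (day 0 to 4), -0.249 to 1.19 (day 0 to 8) and -0.261 to 0.792 (day 4 to 8), Gcm1 from -0.0326 to 0.957 (day 4 to 8) and Tfap2c from -0.451 to 0.119 (day 0 to 4).

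Over all genes tested, DESeq2 called 3737 at day 0 (edgeR 1346), 5455 at day 8 (2445), 3346 over all days (244), 6067 from day 0 to 4 (3656), 1566 from day 4 to 8 (76), 4542 from day 0 to 8 (1957), and 1898, 1576 and 3885 for the changes of the difference from day 0 to 4 (125), 4 to 8 (0) and 0 to 8 (1166). Without 1 library, edgeR called 374 to 1619 at day 0, 0 to 4260 at day 8, 0 to 466 over all days, 703 to 4054 from day 0 to 4, 0 to 167 from day 4 to 8, 464 to 2243 from day 0 to 8 and 0 to 2164 for the change from day 0 to 8. Depth limits Elf5 and Gcm1 most, with 0 to 12 counts in the day 0 knockout libraries.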
